A study of Mus musculus with 4 samples.

Results

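The comparison described here is that of neural stem cells cultured with the growth factor VEGF-C against the same kind of cells cultured without it, read across all genes. Its members are 2 of the 4 libraries of the series, chosen by their labels: the library YFP+/Vegfc and the library YFP+, 1 each. Both came from mice of the C57BL/6 background that carry the reporter Vegfr3::YFP, in which yellow fluorescence reports the use of Vegfr3, a receptor of VEGF-C whose gene symbol is Flt4. Per the labels, cells positive for the reporter were sorted by flow cytometry, derived from the subgranular zone (SGZ) and were neural stem cells. They were kept for 18 h in a medium named CCM, with VEGF-C at 50 ng/ml in the library YFP+/Vegfc and with no added VEGF-C in the library YFP+. Cells came from 2 groups of 16 mice, and per the series' design text the cell pellets of both groups were joined for each condition, so no library stands for 1 animal or 1 group of animals. No source used here gives the age of the mice. The other 2 libraries, YFP-/Vegfc and YFP-, hold cells of the same sorts that lacked the reporter, which the labels call neurons, with and without VEGF-C.

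VEGF-C is a secreted growth factor best known from the growth of lymphatic vessels. It binds the tyrosine kinase receptors VEGFR3 and VEGFR2 and a neuropilin co-receptor, and receptor activation feeds into the ERK and AKT kinase cascades. In the adult dentate gyrus, radial glia-like stem cells of the SGZ rest for long periods, enter the cell cycle when activated, and give rise to intermediate progenitors and then granule neurons. Stem cells of this kind share many genes with astrocytes.

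RNA was amplified as full-length cDNA from small amounts of input and sequenced, and values are FPKM, fragments scaled by transcript length and library size, as the authors deposited them. A difference is the log2 of (FPKM + 1) with VEGF-C over (FPKM + 1) without it, which understates the change of low genes. A gene counts as measured when it reached 1 FPKM in either library, and as higher or lower when it differed at least 2-fold on that scale. With 1 library a condition there is no replicate check, so every count and median below describes these libraries and none carries a test. The library with VEGF-C held about 60326299 fragments and 13528 genes above 0, and the library without it held about 8561944 fragments and 9669 genes above 0. These fragment totals are estimates from the steps of the deposited normalized counts. The median gene at 1 FPKM or more stood at 10.2 FPKM with VEGF-C and at 24.5 FPKM without it. Some exact zeros concern genes that every cell uses, such as the reference gene Gusb, which was at 1.49 FPKM with VEGF-C but listed at 0 without it. Another reference gene was listed at 0 with VEGF-C although it was abundant without it, so zeros are not confined to low genes or to the library with fewer fragments. A 0 is therefore written as listed at 0 and gets no fold. The counts are unstranded, so overlapping and antisense genes cannot be told apart, and values of near-identical copies such as the alpha globin genes are uncertain.

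The labelled cell type was checked against marker lists. Neural stem cell markers summed to 2209 FPKM with VEGF-C and 3679 FPKM without it, with 1 of 23 markers listed at 0 with VEGF-C and 3 without it. Astrocyte markers summed to 4919.9 FPKM with VEGF-C and 6645 FPKM without it, with 0 of 20 markers listed at 0 with VEGF-C and 1 without it. In the cells without the reporter these sums were 995 FPKM with VEGF-C and 435 FPKM without it for stem cell markers, and 1608 FPKM with VEGF-C and 894 FPKM without it for astrocyte markers. Their mature neuron markers summed to only 109.6 FPKM with VEGF-C and 83.7 FPKM without it. Their oligodendrocyte markers summed to 14302 FPKM with VEGF-C and 10402 FPKM without it, and microglial markers to 2360 FPKM and 592 FPKM. The marker lists thus do not bear out the name neurons for the cells without the reporter. Stem cell and astrocyte markers were thus present in both reporter-positive libraries, and these lists cannot separate both cell types. Oligodendrocyte markers were present as well, summing to 967 FPKM with VEGF-C and 1102 FPKM without it, and mature neuron markers summed to 222 FPKM with VEGF-C and 190.4 FPKM without it. Microglial markers summed to 42.9 FPKM with VEGF-C and 88.5 FPKM without it, with 10 of 20 markers listed at 0 with VEGF-C and 7 without it. The direction of that sum rests on Fcer1g, at 1.08 FPKM with VEGF-C and 79.6 FPKM without it. Without Fcer1g, a choice made after its values were seen, the sum was 41.8 FPKM with VEGF-C and 8.90 FPKM without it, the other way round. Of the 6 measured microglial markers 3 were at least 2-fold higher with VEGF-C and 1 lower, beside 62.1% and 16.8% of all genes with a mean of 3 to 10 FPKM. The defining genes P2ry12, Tmem119, C1qa and Trem2 were listed at 0 in both libraries. Endothelial markers summed to 33.0 FPKM with VEGF-C and 19.8 FPKM without it, with 8 of 19 markers listed at 0 with VEGF-C and 15 without it. Of the 7 measured ones 5 were at least 2-fold higher with VEGF-C and 1 lower, beside 77.7% and 7.22% of all genes with a mean of 1 to 3 FPKM. The median mean of the measured ones, 0.978 FPKM, lay just under that bin, the lowest used. The defining genes Tie1, Vwf, Esam and Emcn were listed at 0 in both libraries, but Pecam1, named after its values were seen, was at 1.25 FPKM with VEGF-C and 0.366 FPKM without it, and Cdh5, from 336 fragments, at 1.17 FPKM with VEGF-C but listed at 0 without it. In bulk samples such as these, fewer cells of a type and less RNA per cell cannot be told apart.

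Receptor genes of VEGF-C were detected with VEGF-C and not without it. Flt4, which encodes VEGFR3 (chromosome 11, 49609263 to 49652739, plus strand, ENSMUSG00000020357.3, mm10), was at 2.01 FPKM with VEGF-C from 860 fragments, and was listed at 0 without it, where 3 fragments, the limit that a count of 0 allows, would be 0.0747 FPKM. Kdr, which encodes VEGFR2, was at 1.02 FPKM with VEGF-C from 408 fragments but listed at 0 without it, with a limit of 0.0802 FPKM. Such limits and intervals account for counting error alone, since copies made by amplification are not separate molecules. The reporter gene of the sort therefore does not check the label of the library without VEGF-C. The co-receptor gene Nrp2 stood at 2.54 FPKM with VEGF-C and 0.187 FPKM without it, from 1229 fragments with VEGF-C and 8 without it. Nrp1, a co-receptor shared with VEGF-A and semaphorins, was at 6.59 FPKM with VEGF-C and 17.4 FPKM without it. Receptor and co-receptor genes of VEGF-C were thus higher in level with it apart from Nrp1, which was lower. Of all genes with a mean of 1 to 3 FPKM, 77.7% were higher with VEGF-C and 45.6% were listed at 0 without it. The direction of the low genes Flt4 and Nrp2 is therefore that of most genes in that bin. Kdr, with a mean under 1 FPKM, lay below the bin. Of all 8 measured VEGF ligand, receptor and co-receptor genes, 4 were at least 2-fold higher and 3 lower. Among ligands, Vegfa, the main factor for blood vessel growth and a target of hypoxia, was at 10.9 FPKM with VEGF-C and 75.9 FPKM without it (log2 ratio -2.69; chromosome 17, 46016993 to 46032369, minus strand, ENSMUSG00000023951.17). Its interval was 10.4 to 11.4 FPKM with VEGF-C and 71.9 to 80.0 FPKM without it (95% exact Poisson). Vegfb was at 13.0 FPKM with VEGF-C and 6.23 FPKM without it, and Pgf, a ligand of VEGFR1, was at 1.11 FPKM with VEGF-C but listed at 0 without it. Figf, the older symbol of the VEGF-D gene, was listed at 0 with VEGF-C and at 1.15 FPKM without it. The receptor gene Flt1 was below the 1 FPKM threshold in both libraries, and Vegfc itself was listed at 0 in both.

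Over all genes, the direction of the differences depended on how abundant a gene was. Of 11040 genes measured, 5020 (45.5%) were at least 2-fold higher with VEGF-C and 2899 (26.3%) at least 2-fold lower, with a median log2 ratio of 0.59. Of the higher genes, 2174 were listed at 0 without VEGF-C, and of the lower ones 130 were listed at 0 with it. Among the 8736 genes above 0 in both libraries, 2846 were higher and 2769 lower, and the median was -0.14. Among the 3523 genes at 10 FPKM or more in both libraries, 233 (6.61%) were higher and 1322 (37.5%) lower, and the median was -0.71. That median corresponds to abundant genes standing 1.63-fold lower with VEGF-C. Ratios less this median are called re-centred or relative to the shift below, and on that scale 631 (17.9%) of the 3523 genes were higher and 528 (15.0%) lower. A gene with a ratio between -0.71 and 0 is thus lower in level as deposited and higher relative to the shift. Upper-quartile scaling, which puts the median of these genes at 0.51, moves list medians by a like amount and is given beside some lists. Across these genes, which are not independent replicates, log2(FPKM + 1) in the libraries correlated with a Pearson's r of 0.796 and a Spearman's rho of 0.670, and across all 11040 genes with 0.637 and 0.564.

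**Figure D1:**
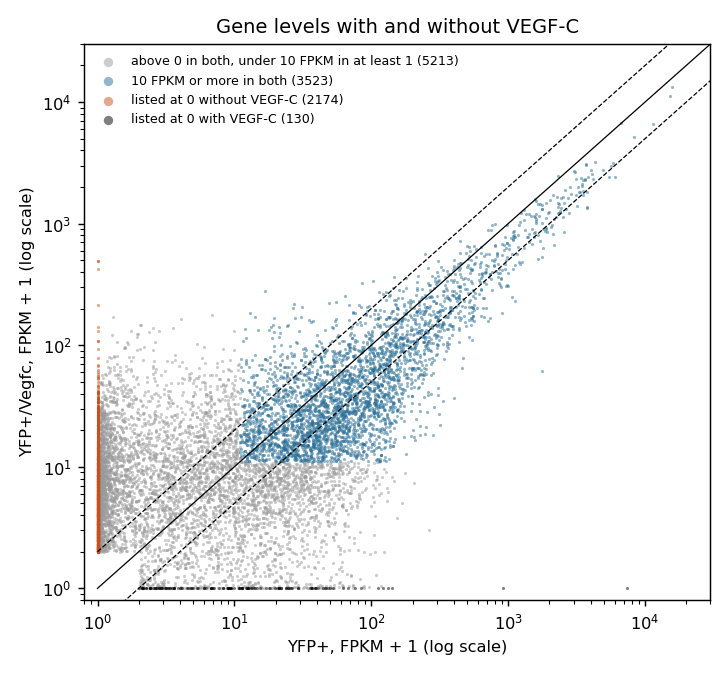
Each point is 1 of 11040 genes, with its level in YFP+/Vegfc cells up the page and in YFP+ cells across it, both as FPKM + 1 on log axes, and 1 library a condition; the solid line marks equal levels and the dashed lines 2-fold. Genes listed at 0 without VEGF-C form a band along the left edge, and most genes at 10 FPKM or more in both libraries lie below the solid line; their median log2 ratio was -0.71.

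The same change of direction is seen in bins of the mean FPKM of both libraries. Between 1 and 3 FPKM, 77.7% of 1994 genes were higher with VEGF-C and 7.22% lower, and 45.6% were listed at 0 without it. Between 10 and 30 FPKM, 31.1% of 2537 genes were higher and 36.9% lower. Between 100 and 300 FPKM, 4.89% of 634 genes were higher and 39.0% lower. At 300 FPKM or more, 0.280% of 357 genes were higher and 30.5% lower. Between 3 and 10 FPKM, 62.1% of 2828 genes were higher and 16.8% lower. Beside a count over all measured members of a list, the shares higher and lower among all genes in its bin are therefore given, the bin being that of the list's median mean FPKM, and a share near them says nothing about the list. Members of a list can span several bins, so these shares are a rough guide, above all where that median lies close to an edge. Counts relative to the shift are to be read beside the 17.9% of all abundant genes that were higher and the 15.0% that were lower on that scale. After thinning the library with VEGF-C to the fragments of the other, 12785 genes were still above 0 in it, against 9669 without VEGF-C. The part of detection in the library without VEGF-C was not tested.

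**Figure D2:**
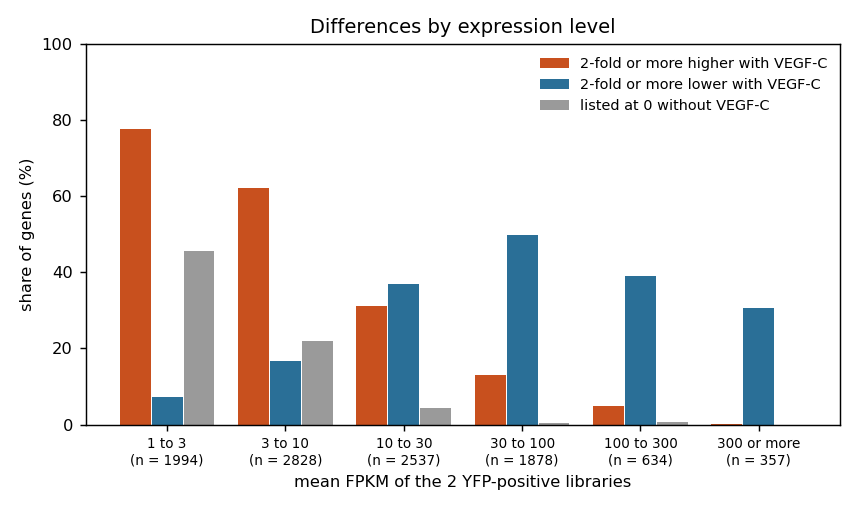
Bars give the share of genes, in percent, that were at least 2-fold higher or lower in YFP+/Vegfc than in YFP+ cells in each bin of mean FPKM, and grey bars give the share listed at 0 without VEGF-C. The share higher goes down along the bins, 77.7% in the lowest and 0.280% in the highest, while the share lower peaks at 49.8% between 30 and 100 FPKM.

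Among genes at 10 FPKM or more in both libraries, the most extreme higher genes came from several processes. Car2, a carbonic anhydrase (chromosome 3, 14886273 to 14900770, plus strand, ENSMUSG00000027562.12), led them at 276 FPKM with VEGF-C and 15.7 FPKM without it, a log2 ratio of 4.05. Eif3l, a subunit of the translation initiation factor eIF3, was at 184 FPKM with VEGF-C and 12.0 FPKM without it. Fcf1, which acts in processing of ribosomal RNA, was at 168 FPKM with VEGF-C and 13.2 FPKM without it. Ndufs5, a subunit of respiratory complex I, was at 108 FPKM with VEGF-C and 10.5 FPKM without it, and Asns, which makes asparagine, at 114 FPKM with VEGF-C and 11.2 FPKM without it. Psmd6, a subunit of the proteasome lid, stood at 132 FPKM with VEGF-C and 13.8 FPKM without it. The microtubule regulator gene Stmn3 was at 165 FPKM with VEGF-C and 18.4 FPKM without it, the mitochondrial thioredoxin gene Txn2 at 146 FPKM with VEGF-C and 18.3 FPKM without it, and Gdi2, which recycles Rab GTPases, at 199.6 FPKM with VEGF-C and 25.9 FPKM without it. Sec11c, a catalytic subunit of signal peptidase, was at 140.2 FPKM with VEGF-C and 17.4 FPKM without it. Tmem208, of the endoplasmic reticulum, and Cfdp1 had log2 ratios of 3.50 and 3.00. All 12 were at least 7.72-fold higher by FPKM with VEGF-C.

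The most extreme lower genes at this threshold also had varied roles. Mir671 is a microRNA hairpin so short that its level is uncertain, at 59.99 FPKM with VEGF-C from 4 fragments and 1764 FPKM without it from 13. The chemokine gene Ccl3 was at 17.3 FPKM with VEGF-C and 280.3 FPKM without it, a log2 ratio of -3.95. Sox10, a transcription factor of the oligodendrocyte lineage (chromosome 15, 79154908 to 79165240, minus strand, ENSMUSG00000033006.10), was at 20.1 FPKM with VEGF-C and 249 FPKM without it. Ndufs1, the largest subunit of complex I, was at 16.5 FPKM with VEGF-C and 204 FPKM without it, opposite to Ndufs5 in the same complex. Rpp21, a protein of ribonuclease P, was at 21.2 FPKM with VEGF-C and 318 FPKM without it, and Rcl1, of ribosomal RNA processing, at 15.4 FPKM with VEGF-C and 208 FPKM without it. Vamp2, a SNARE protein of vesicle fusion, was at 17.7 FPKM with VEGF-C and 246 FPKM without it. Cnrip1, which binds the cannabinoid receptor CB1, was at 17.2 FPKM with VEGF-C and 224 FPKM without it, and Slc50a1, a sugar transporter, at 10.5 FPKM with VEGF-C and 135 FPKM without it. Jtb, Eid3 and Shisa5 had log2 ratios of -3.81, -3.53 and -3.51.

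**Figure D3:**
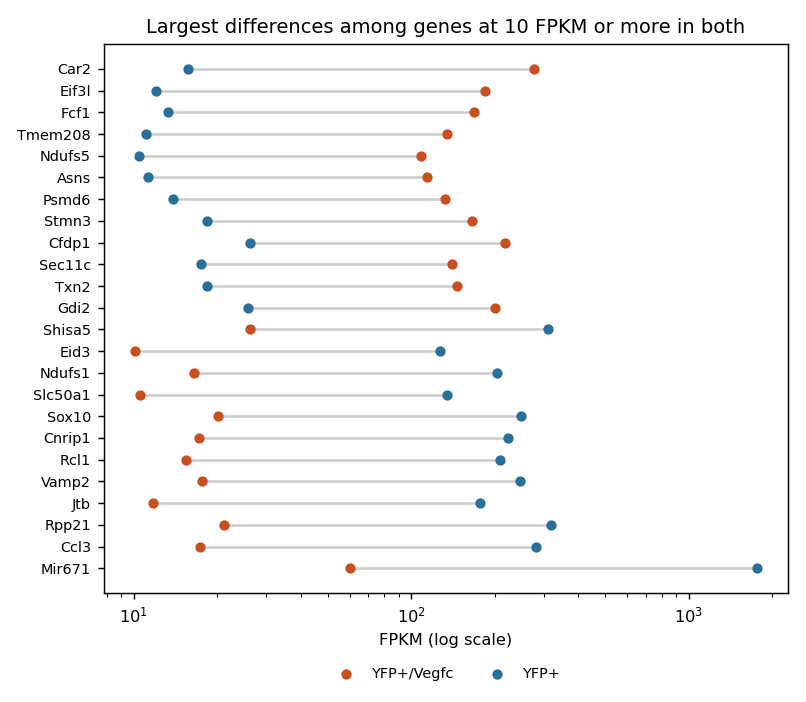
Points give the FPKM, on a log axis, of the 12 most extreme genes in each direction among the 3523 genes at 10 FPKM or more in both libraries, with YFP+/Vegfc and YFP+ as separate symbols joined by a line. Car2 heads the genes higher with VEGF-C, and Mir671, at 59.99 FPKM with VEGF-C and 1764 FPKM without it, has the most extreme difference among the lower ones.

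With the threshold lowered to 1 FPKM in either library and a level above 0 in both, the extremes were genes close to undetected on one side. Atp6v1f, a subunit of the proton pump of lysosomes, was at 168 FPKM with VEGF-C and 0.298 FPKM without it, the last value from 1 fragment. Ndufb3, of complex I, was at 106 FPKM with VEGF-C and 0.380 FPKM without it, and Mrps28, of the mitochondrial ribosome, at 131 FPKM with VEGF-C and 0.755 FPKM without it. The imprinted spliceosome gene Snrpn was at 79.6 FPKM with VEGF-C and 0.206 FPKM without it, and Bud31, also of the spliceosome, at 77.4 FPKM with VEGF-C and 0.260 FPKM without it. Pam16 acts in protein import into mitochondria, Sar1b in vesicle export from the endoplasmic reticulum, and Cops4 in the COP9 signalosome, and their log2 ratios were 6.13, 6.01 and 5.96. Sh3bgrl3, Mien1, 1810032O08Rik and D17Wsu104e had ratios of 6.16, 5.97, 6.57 and 6.00. All 12 had at most 5 fragments without VEGF-C. In the other direction, Gng13, a G protein gamma subunit, was at 0.0531 FPKM with VEGF-C and 116 FPKM without it, and Cd300ld, a receptor of myeloid cells, at 0.00584 FPKM with VEGF-C and 87.2 FPKM without it. Dnd1, an RNA-binding protein of germ cells, was at 0.0407 FPKM with VEGF-C and 87.7 FPKM without it, and Necab2, a neuronal calcium-binding protein, at 0.0221 FPKM with VEGF-C and 85.6 FPKM without it. The metalloproteinase gene Mmp19 was at 0.0470 FPKM with VEGF-C and 72.2 FPKM without it, and Mmaa, which acts in cobalamin metabolism, at 0.0645 FPKM with VEGF-C and 72.4 FPKM without it. Trmt10b, a methyltransferase of transfer RNA, and Ccdc102a had log2 ratios of -6.03 and -6.54. Snora78 is a short nucleolar RNA, at 1.99 FPKM with VEGF-C from 3 fragments and 262 FPKM without it from 41. The remaining lower extremes were Mettl22, D630033O11Rik and Gm10767, with ratios of -6.11, -6.40 and -6.19.

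Genes of DNA replication were mostly higher in level with VEGF-C, and most of those were low without it. In this list, 25 of 41 measured members stood at least 2-fold higher with VEGF-C and 9 lower (31.1% and 36.9% of all genes in its bin), against 45.5% and 26.3% of all genes. Its median log2 ratio was 1.98, and 6 members were listed at 0 without VEGF-C. The list's median mean of 10.25 FPKM lay just above the lower edge of its bin, 10 FPKM. Of all genes with a mean of 3 to 10 FPKM, 62.1% were higher and 16.8% lower. Beside that lower bin the list's count does not stand out. Fen1, which trims the flaps of lagging-strand fragments, was at 20.4 FPKM with VEGF-C and 0.0727 FPKM without it. Rpa2 and Rpa3, which coat single-stranded DNA together with Rpa1, were at 21.3 FPKM with VEGF-C and 0.0872 FPKM without it, and at 20.6 FPKM with VEGF-C but listed at 0 without it. Rpa1 itself was at 92.9 FPKM with VEGF-C and 169 FPKM without it, so subunits of the same complex stood apart in direction. Pold2, a subunit of DNA polymerase delta (chromosome 11, 5872180 to 5878292, minus strand, ENSMUSG00000020471.11), was at 44.1 FPKM with VEGF-C and 13.6 FPKM without it, and the helicase subunit gene Mcm6 at 26.6 FPKM with VEGF-C and 12.9 FPKM without it. The lower members included Gins4, of the helicase complex with Gins2, at 3.37 FPKM with VEGF-C and 41.9 FPKM without it. Dut, which keeps uracil out of DNA, was at 11.6 FPKM with VEGF-C and 56.5 FPKM without it, and Cdt1, which licenses replication origins, at 9.50 FPKM with VEGF-C and 46.5 FPKM without it. Tk1, the thymidine kinase of S phase, was at 0.181 FPKM with VEGF-C and 7.33 FPKM without it. Among the members at 10 FPKM or more in both libraries the picture differed: 9 members stood at 10 FPKM or more in both libraries, with 2 higher and 2 lower relative to the shift and a re-centred median of -0.15. With upper-quartile scaling that median was 0.38, of the opposite sign, beside 0.51 over all genes at that level.

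Genes of mitosis showed the same split between low and abundant members. In this list, 31 of 45 measured members stood at least 2-fold higher with VEGF-C and 9 lower (62.1% and 16.8% of all genes in its bin), with a median of 2.004, and 19 of the members were listed at 0 without VEGF-C. The median member had a mean of 4.21 FPKM. Cks1b, a partner of cyclin-dependent kinases (chromosome 3, 89415472 to 89418383, minus strand, ENSMUSG00000028044.6), was at 59.9 FPKM with VEGF-C and 0.237 FPKM without it. Cenpa, the histone that marks centromeres, was at 19.9 FPKM with VEGF-C but listed at 0 without it, and Cdca8, of the chromosomal passenger complex, at 17.5 FPKM with VEGF-C but listed at 0 without it. Pttg1, the securin that holds sister chromatids together, was at 24.3 FPKM with VEGF-C and 0.244 FPKM without it. Against these, the spindle motor gene Kif11 was at 0.251 FPKM with VEGF-C and 69.6 FPKM without it, and Ccnb1, which encodes cyclin B1, at 8.11 FPKM with VEGF-C and 127 FPKM without it. Spc25, of the kinetochore, was at 7.18 FPKM with VEGF-C and 118 FPKM without it, and Prc1, which bundles the central spindle, at 8.402 FPKM with VEGF-C and 48.2 FPKM without it. Cks2, the paralog of Cks1b, was at 44.3 FPKM with VEGF-C and 110.2 FPKM without it, and the condensin gene Smc2 at 15.4 FPKM with VEGF-C and 49.6 FPKM without it. Bub3, of the spindle checkpoint, was at 51.2 FPKM with VEGF-C and 75.1 FPKM without it, and Racgap1, which acts in cytokinesis, at 22.3 FPKM with VEGF-C and 21.7 FPKM without it. Of the 6 members at 10 FPKM or more in both libraries, 0 were at least 2-fold higher and 4 lower as deposited, and relative to the shift 0 were higher and 0 lower. Their re-centred median was -0.38, and 0.11 with upper-quartile scaling.

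**Figure D4:**
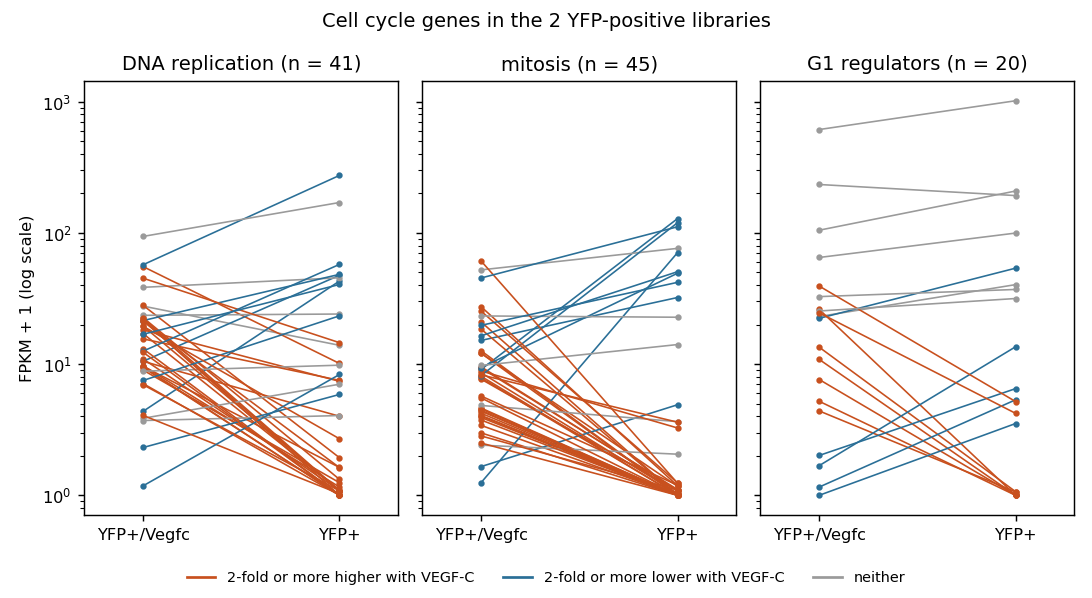
Points give FPKM + 1, on a log axis, of genes of DNA replication, mitosis and G1 regulation in YFP+/Vegfc and YFP+ cells, 1 library a condition, with a line joining each gene. Members low without VEGF-C, such as Fen1 at 20.4 FPKM with VEGF-C and 0.0727 FPKM without it, have lines that slope down to the right, and the line of the abundant Pcna, at 56.2 FPKM with VEGF-C and 273 FPKM without it, slopes up.

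Promoters of these genes are shown because replication and mitosis genes are classically tied to different promoter elements. The shared direction of low members is no reason to look at them. A gene low without VEGF-C counts as measured mainly by being higher with it. Of all genes with a mean of 3 to 10 FPKM, 62.1% were higher, so that direction says nothing about these lists. The 4 genes printed were chosen after their values were seen: Mcm2 at 9.93 FPKM with VEGF-C and 0.0881 FPKM without it, Mcm5 at 16.0 FPKM with VEGF-C and 0.0867 FPKM without it, Ube2c at 26.3 FPKM with VEGF-C and 0.183 FPKM without it, and Pcna, the sliding clamp of DNA polymerases, at 56.2 FPKM with VEGF-C and 273 FPKM without it. Mcm2 and Mcm5 belong to the replicative helicase, and Ube2c is a ubiquitin-conjugating enzyme of mitosis. Each sequence holds the 250 bases before the gene's start from RefSeq (GRCm38.p6), 5′ to 3′ on the strand of the gene. Capitals mark the E2F motif (TTTCCCGC or TTTGGCGC), the cell cycle homology region, CHR (TTTGAA or TTCGAA), and the CCAAT box, each on either strand. The run CCAATTGG counts once on each strand.
Mcm2, chr6:88898781-88899030, minus strand: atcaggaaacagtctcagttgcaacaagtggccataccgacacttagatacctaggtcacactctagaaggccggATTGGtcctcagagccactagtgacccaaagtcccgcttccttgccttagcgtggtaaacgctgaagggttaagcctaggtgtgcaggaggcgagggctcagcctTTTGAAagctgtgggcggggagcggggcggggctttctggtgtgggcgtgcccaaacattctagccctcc
Mcm5, chr8:75109259-75109508, plus strand: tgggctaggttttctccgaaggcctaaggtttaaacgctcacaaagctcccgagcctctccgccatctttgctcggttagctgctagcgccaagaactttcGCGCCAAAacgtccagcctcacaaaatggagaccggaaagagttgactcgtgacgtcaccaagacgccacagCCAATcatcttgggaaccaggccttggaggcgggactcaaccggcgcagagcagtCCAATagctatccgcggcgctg
Ube2c, chr2:164769679-164769928, plus strand: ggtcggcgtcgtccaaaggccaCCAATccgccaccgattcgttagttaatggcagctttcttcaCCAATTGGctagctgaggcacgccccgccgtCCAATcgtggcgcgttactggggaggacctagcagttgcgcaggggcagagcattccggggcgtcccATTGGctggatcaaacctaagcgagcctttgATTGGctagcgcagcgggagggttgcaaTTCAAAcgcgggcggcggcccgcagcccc
Pcna, chr2:132253181-132253430, minus strand: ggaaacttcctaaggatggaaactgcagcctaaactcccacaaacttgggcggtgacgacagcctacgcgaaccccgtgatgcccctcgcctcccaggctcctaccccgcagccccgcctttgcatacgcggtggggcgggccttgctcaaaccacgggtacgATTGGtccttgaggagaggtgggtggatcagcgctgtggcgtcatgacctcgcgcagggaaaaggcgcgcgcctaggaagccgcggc

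Mcm5 holds 1 E2F motif and 2 CCAAT boxes, Ube2c holds 1 CHR and 6 CCAAT boxes, Mcm2 holds 1 CHR and 1 CCAAT box, and Pcna holds 1 CCAAT box in these windows. Pcna, lower in level with VEGF-C, and Mcm5, higher in level, thus both hold a CCAAT box. The E2F motif was in 6 of 40 replication genes matched to a window (15.0%) and in 1 of 44 mitosis genes (2.27%), against 1.51% of 27025 genes. The CHR was in 7 of 40 replication genes (17.5%) and 19 of 44 mitosis genes (43.2%), against 19.6% of all. CCAAT boxes were in 26 replication genes (65.0%) and 33 mitosis genes (75.0%), against 37.5% of all. A match describes these letters in this window and does not show binding.

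Regulators of entry into the cycle did not share a direction. In this list, 8 of 20 measured members stood at least 2-fold higher with VEGF-C and 5 lower (31.1% and 36.9% of all genes in its bin), with a median of -0.25. The cyclin genes Ccnd3 and Ccne1 were at 9.85 FPKM and 6.63 FPKM with VEGF-C and both were listed at 0 without it. Cdk2, the kinase partner of cyclin E, was at 12.4 FPKM with VEGF-C and 0.0664 FPKM without it. Ccnd1, the cyclin that growth factors raise, was at 63.9 FPKM with VEGF-C and 98.6 FPKM without it, and Ccnd2 at 103.7 FPKM with VEGF-C and 207 FPKM without it, while their kinase Cdk4 was at 233 FPKM with VEGF-C and 191 FPKM without it. E2f1, an activator of S phase genes, was at 0.683 FPKM with VEGF-C and 12.5 FPKM without it, E2f8, a repressor of them, was listed at 0 with VEGF-C and at 2.52 FPKM without it, and E2f5 was at 38.3 FPKM with VEGF-C and 4.18 FPKM without it. The inhibitor gene Cdkn1a, which encodes p21, was among the most abundant members at 612 FPKM with VEGF-C and 1014 FPKM without it, and Cdkn1b, which encodes p27, was at 22.03 FPKM with VEGF-C and 39.3 FPKM without it. Cdkn2c and Cdkn2d, inhibitors of the same family, stood apart, at 21.3 FPKM with VEGF-C and 52.8 FPKM without it, and at 25.1 FPKM with VEGF-C but listed at 0 without it. At 10 FPKM or more in both libraries, 0 of 8 members were higher and 0 lower relative to the shift, with a re-centred median of 0.03.

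Targets of p53, which overlap with arrest and cell death genes, were mixed as well. Of these, 8 of 20 measured members stood at least 2-fold higher with VEGF-C and 6 lower (31.1% and 36.9% of all genes in its bin), and the re-centred median of 9 abundant members was -0.02. Sesn2, a stress sensor of amino acid supply, was at 33.6 FPKM with VEGF-C and 3.46 FPKM without it, and Plk3 at 12.6 FPKM with VEGF-C and 0.320 FPKM without it. Bbc3, which encodes the death protein PUMA, was at 0.909 FPKM with VEGF-C and 96.6 FPKM without it, and Pmaip1, which encodes NOXA, at 3.79 FPKM with VEGF-C but listed at 0 without it. The p53 ligase gene Mdm2 was at 103 FPKM with VEGF-C and 139 FPKM without it, and the death effector gene Bax at 382 FPKM with VEGF-C and 359.8 FPKM without it. Zmat3 and Eda2r were at 6.91 FPKM with VEGF-C and 34.9 FPKM without it, and at 8.08 FPKM with VEGF-C and 30.2 FPKM without it.

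Feedback genes and targets of ERK, the kinase cascade below receptor tyrosine kinases, had a median above that of all abundant genes. Of these, 10 of 19 measured members stood at least 2-fold higher with VEGF-C and 2 lower (31.1% and 36.9% of all genes in its bin), with a median of 1.22. Of the 10 higher members, only 2 were at 10 FPKM or more in both libraries, and the rest were under 1 FPKM without VEGF-C. Of all genes with a mean of 3 to 10 FPKM, 62.1% were higher and 16.8% lower. Beside that lower bin the count over all measured members does not stand out. At the higher threshold, 9 members stood at 10 FPKM or more in both libraries, with 4 higher and 0 lower relative to the shift and a re-centred median of 0.86, beside 17.9% and 15.0% of all genes at that level. With no re-centring 2 of these were higher and 0 lower, and their median was 0.15, and with upper-quartile scaling the median was 1.33. Dusp1 and Dusp6, phosphatases of MAP kinases, were at 45.1 FPKM with VEGF-C and 18.0 FPKM without it, and at 55.9 FPKM with VEGF-C and 23.4 FPKM without it. The ETS factor gene Etv5 was at 41.8 FPKM with VEGF-C and 22.5 FPKM without it, and Spry4, an inhibitor of the cascade, at 18.2 FPKM with VEGF-C and 14.3 FPKM without it. Spred2, another inhibitor, was at 6.75 FPKM with VEGF-C and 0.209 FPKM without it, and Dusp10 at 7.02 FPKM with VEGF-C and 0.720 FPKM without it. Spry2, an inhibitor of the cascade and the most abundant member, was at 782 FPKM with VEGF-C and 1534 FPKM without it. Ier3 was at 156 FPKM with VEGF-C and 303 FPKM without it, Phlda1 at 60.6 FPKM with VEGF-C and 109 FPKM without it and Spred1 at 19.5 FPKM with VEGF-C and 21.9 FPKM without it, so 4 of the 9 abundant members were lower in level as deposited, and Spry2, Ier3 and Phlda1 also lay below the shift (re-centred log2 ratios -0.26, -0.25 and -0.13). The list summed to 1266 FPKM with VEGF-C and 2096 FPKM without it. The 2 members 2-fold lower were Dusp2, a nuclear phosphatase, at 0.320 FPKM with VEGF-C and 8.24 FPKM without it, and Dusp7 at 7.68 FPKM with VEGF-C and 21.8 FPKM without it.

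Immediate early genes, which ERK and calcium signals switch on within minutes and which cell handling also induces, were spread otherwise than the ERK list. Of these, 5 of 23 measured members stood at least 2-fold higher with VEGF-C and 9 lower (12.9% and 49.8% of all genes in its bin), and 17 members stood at 10 FPKM or more in both libraries, with 3 higher and 2 lower relative to the shift and a re-centred median of -0.14. Fosl1, a late member of the Fos family, was at 56.7 FPKM with VEGF-C and 17.9 FPKM without it, while Fosl2 was at 17.6 FPKM with VEGF-C and 66.0 FPKM without it. Egr2 was at 12.6 FPKM with VEGF-C and 0.353 FPKM without it, Egr1 at 131 FPKM with VEGF-C and 194 FPKM without it and Egr3 at 3.18 FPKM with VEGF-C and 20.5 FPKM without it. Klf10 was at 37.9 FPKM with VEGF-C and 13.7 FPKM without it, and Klf2, a factor of quiescence in other cells, at 0.209 FPKM with VEGF-C and 39.4 FPKM without it. Btg2, which restrains proliferation, was at 44.5 FPKM with VEGF-C and 0.580 FPKM without it, and the growth regulator gene Myc at 315 FPKM with VEGF-C and 475 FPKM without it. Members of the same family thus stood on both sides. Fos and Jun, the best known members, were both lower in level with VEGF-C, Fos at 144 FPKM with VEGF-C and 301 FPKM without it and Jun at 119.7 FPKM with VEGF-C and 288 FPKM without it. Under upper-quartile scaling the sign of Fos turned (log2 ratio 0.18).

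Stem cell markers did not share a direction. Of these, 6 of 21 measured members stood at least 2-fold higher with VEGF-C and 7 lower (31.1% and 36.9% of all genes in its bin), with a median of -0.62, and 11 members stood at 10 FPKM or more in both libraries, with 2 higher and 0 lower relative to the shift and a re-centred median of 0.05. Gfap, the glial filament gene, was at 66.3 FPKM with VEGF-C and 35.6 FPKM without it, and Nes, which encodes nestin, at 43.2 FPKM with VEGF-C and 39.0 FPKM without it. Vim, which encodes vimentin and was the most abundant marker, was at 1215 FPKM with VEGF-C and 2333 FPKM without it. The lowest ratios were those of the Notch target Hes5, at 0.228 FPKM with VEGF-C and 49.6 FPKM without it, and Msi1, an RNA-binding protein of progenitors, at 0.910 FPKM with VEGF-C and 27.3 FPKM without it. Hopx, a marker of quiescent radial glia, was at 40.4 FPKM with VEGF-C and 62.7 FPKM without it, and Sox2, a factor of stem cell identity, at 42.1 FPKM with VEGF-C and 114 FPKM without it. Thrsp, a regulator of lipid synthesis in quiescent stem cells, was at 55.4 FPKM with VEGF-C and 149.7 FPKM without it. Nr2e1, which keeps stem cells cycling and is also called Tlx, was at 4.21 FPKM with VEGF-C and 43.8 FPKM without it. Id4, linked to quiescence, was at 10.3 FPKM with VEGF-C and 0.660 FPKM without it. Sox9, a factor of radial glia and astrocytes, was at 191 FPKM with VEGF-C and 445 FPKM without it.

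Most astrocyte genes differed by less than 2-fold. Of these, 3 of 20 measured members stood at least 2-fold higher with VEGF-C and 4 lower (12.9% and 49.8% of all genes in its bin), and 16 members stood at 10 FPKM or more in both libraries, with 3 higher and 0 lower relative to the shift and a re-centred median of 0.34. Gja1, a gap junction gene, was at 285 FPKM with VEGF-C and 268 FPKM without it, Slc1a2, a glutamate transporter, at 48.1 FPKM with VEGF-C and 41.8 FPKM without it, and Aldoc at 416 FPKM with VEGF-C and 536 FPKM without it. Acsbg1, which activates fatty acids, was at 83.0 FPKM with VEGF-C and 26.3 FPKM without it. The clusterin gene Clu was at 717 FPKM with VEGF-C and 441 FPKM without it. Aqp4, the water channel of astrocyte endfeet, was at 4.93 FPKM with VEGF-C and 31.9 FPKM without it, and Glul, the glutamine synthetase, at 94.5 FPKM with VEGF-C and 299 FPKM without it. Gjb6, another gap junction gene, was at 16.1 FPKM with VEGF-C but listed at 0 without it, unlike Gja1. Mlc1, a membrane protein of astrocyte endfeet, was at 43.5 FPKM with VEGF-C and 96.7 FPKM without it, and the bicarbonate transporter gene Slc4a4 at 16.8 FPKM with VEGF-C and 40.2 FPKM without it.

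Notch signalling maintains stem cells, and its genes stood on both sides. Of these, 7 of 17 measured members stood at least 2-fold higher with VEGF-C and 4 lower (62.1% and 16.8% of all genes in its bin), with 4 listed at 0 without VEGF-C. The receptor genes Notch1 and Notch2 were at 15.4 FPKM with VEGF-C and 54.9 FPKM without it, and at 19.1 FPKM with VEGF-C and 67.3 FPKM without it, both lower in level also relative to the shift (re-centred log2 ratios -1.06 and -1.06). The ligand gene Dll1 was at 4.31 FPKM with VEGF-C and 0.0433 FPKM without it, and Jag1 at 17.4 FPKM with VEGF-C and 31.1 FPKM without it. The target Hes5, named above, had the lowest ratio of the list (log2 ratio -5.36). Hey2 was at 39.7 FPKM with VEGF-C and 41.6 FPKM without it, Hes1 at 28.5 FPKM with VEGF-C and 45.6 FPKM without it and Heyl at 2.69 FPKM with VEGF-C but listed at 0 without it. Numb, an inhibitor of the receptors, was at 9.29 FPKM with VEGF-C and 1.47 FPKM without it, and Hes6, which opposes Hes1, at 22.1 FPKM with VEGF-C but listed at 0 without it. Lfng, which modifies Notch receptors, was at 5.78 FPKM with VEGF-C but listed at 0 without it.

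Genes of BMP signalling, which holds SGZ stem cells quiescent, had 5 of 19 measured members at least 2-fold higher with VEGF-C and 8 lower (31.1% and 36.9% of all genes in its bin), and 9 members stood at 10 FPKM or more in both libraries, with 0 higher and 2 lower relative to the shift and a re-centred median of 0.01. The target genes Id2 and Id3 were at 572 FPKM with VEGF-C and 487 FPKM without it, and at 386 FPKM with VEGF-C and 407 FPKM without it, while Id1 was at 193 FPKM with VEGF-C and 566 FPKM without it. Smad7, the inhibitor that BMP and TGF-beta induce, was at 16.6 FPKM with VEGF-C and 81.6 FPKM without it. The receptor gene Acvr1 was at 11.5 FPKM with VEGF-C and 81.2 FPKM without it, Acvr2b at 0.432 FPKM with VEGF-C and 56.8 FPKM without it and Bmpr1a at 15.6 FPKM with VEGF-C and 26.01 FPKM without it. The ligand Bmp2 was at 1.15 FPKM with VEGF-C and 57.7 FPKM without it, Bmp6 at 19.0 FPKM with VEGF-C and 26.1 FPKM without it, and Bmp7 at 4.58 FPKM with VEGF-C but listed at 0 without it. Smad9, a mediator of the pathway, was listed at 0 with VEGF-C and at 17.1 FPKM without it. Nog, which encodes the BMP antagonist noggin, was at 3.45 FPKM with VEGF-C and 0.803 FPKM without it.

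Among Wnt genes, 11 of 27 measured members stood at least 2-fold higher with VEGF-C and 7 lower (62.1% and 16.8% of all genes in its bin), and 4 stood at 10 FPKM or more in both libraries with 0 higher and 0 lower relative to the shift. Axin2, a direct target and feedback gene, was at 2.28 FPKM with VEGF-C and 23.4 FPKM without it, and Lef1, a nuclear mediator, at 14.3 FPKM with VEGF-C but listed at 0 without it. Ctnnb1, which encodes beta-catenin, was at 64.1 FPKM with VEGF-C and 187 FPKM without it, and Gsk3b, its kinase, at 78.5 FPKM with VEGF-C and 135 FPKM without it. The receptor genes Fzd7 and Fzd1 were at 5.31 FPKM with VEGF-C and 39.8 FPKM without it, and at 11.4 FPKM with VEGF-C and 0.771 FPKM without it. Dvl1, which relays the signal from the receptors, was at 4.99 FPKM with VEGF-C and 48.3 FPKM without it. Few Hedgehog genes were measured, 5 of 13: Gli3 was at 7.24 FPKM with VEGF-C but listed at 0 without it, Ptch1, receptor and target, at 1.01 FPKM with VEGF-C but listed at 0 without it, and Gas1, a co-receptor, at 3.34 FPKM with VEGF-C and 25.8 FPKM without it.

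Along the neuronal lineage, intermediate progenitor genes had 7 of 13 measured members at least 2-fold higher with VEGF-C and 1 lower (31.1% and 36.9% of all genes in its bin), with 3 listed at 0 without VEGF-C. The list's median mean of 11.03 FPKM lay close to the lower edge of its bin, 10 FPKM. Of all genes with a mean of 3 to 10 FPKM, 62.1% were higher and 16.8% lower, and beside them the share higher does not stand out. Eomes, the factor that defines these cells, was at 3.57 FPKM with VEGF-C and 4.53 FPKM without it. Gadd45g was at 273 FPKM with VEGF-C and 112 FPKM without it, Sox11 at 77.7 FPKM with VEGF-C and 89.3 FPKM without it and Insm1 at 1.74 FPKM with VEGF-C and 4.25 FPKM without it. Immature neuron genes had 4 of 16 measured members at least 2-fold higher with VEGF-C and 4 lower (12.9% and 49.8% of all genes in its bin), and 10 members stood at 10 FPKM or more in both libraries, with 2 higher and 0 lower relative to the shift and a re-centred median of 0.03. Stmn1, a microtubule regulator, was at 355 FPKM with VEGF-C and 178 FPKM without it, and Tubb3, a neuronal tubulin, at 242 FPKM with VEGF-C and 166 FPKM without it. Dcx, a marker of migrating neurons, was at 8.43 FPKM with VEGF-C and 28.9 FPKM without it, Gap43, of the growth cone, at 99.8 FPKM with VEGF-C and 252 FPKM without it, and Calb2, which encodes calretinin, at 6.47 FPKM with VEGF-C but listed at 0 without it. Elavl3 was at 24.7 FPKM with VEGF-C and 4.33 FPKM without it. Neurod1 was at 88.2 FPKM with VEGF-C and 135 FPKM without it. In mature neuron genes, 10 of 17 measured members stood at least 2-fold higher with VEGF-C and 2 lower (62.1% and 16.8% of all genes in its bin). Map2, of dendrites, was at 37.1 FPKM with VEGF-C and 7.76 FPKM without it, Snap25, of synaptic vesicle release, at 20.4 FPKM with VEGF-C and 6.28 FPKM without it, and Rbfox3, which encodes NeuN, at 5.46 FPKM with VEGF-C and 0.397 FPKM without it. The neuropeptide gene Npy was at 88.7 FPKM with VEGF-C and 119 FPKM without it, and Syn2, of synaptic vesicles, at 0.0317 FPKM with VEGF-C and 12.2 FPKM without it. Early and late genes of the lineage thus each had members on both sides. Dpysl3, of growth cones, was at 75.4 FPKM with VEGF-C and 179.5 FPKM without it, and Sox4, a factor of young neurons, at 25.2 FPKM with VEGF-C and 52.8 FPKM without it.

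Markers of other brain cells were present at varied levels. Oligodendrocyte genes had 7 of 15 measured members at least 2-fold higher with VEGF-C and 2 lower (62.1% and 16.8% of all genes in its bin). The myelin gene Mbp was at 143 FPKM with VEGF-C and 111 FPKM without it, and Cnp at 77.9 FPKM with VEGF-C and 36.5 FPKM without it, while Mal, of compact myelin, was at 13.9 FPKM with VEGF-C and 143 FPKM without it. Precursor genes had 3 of 7 measured members at least 2-fold higher with VEGF-C and 2 lower (62.1% and 16.8% of all genes in its bin). Olig2, which specifies the lineage, was at 0.0993 FPKM with VEGF-C and 56.8 FPKM without it, and Olig1, next to it in the genome, at 9.34 FPKM with VEGF-C and 0.211 FPKM without it. Neither list shared a direction. Among precursor genes Sox10 and Olig2 were lower in level with VEGF-C and Olig1 was higher. Among oligodendrocyte genes Mbp and Cnp were higher and Mal was lower. Among microglial genes, Cd68 was at 26.8 FPKM with VEGF-C and 5.34 FPKM without it, the adaptor gene Tyrobp at 6.12 FPKM with VEGF-C and 0.349 FPKM without it, and Fcer1g, another adaptor gene, at 1.08 FPKM with VEGF-C and 79.6 FPKM without it. Among endothelial genes, Slc2a1, the glucose transporter also found in glia, was at 20.5 FPKM with VEGF-C and 3.58 FPKM without it, Tek, the angiopoietin receptor, at 3.12 FPKM with VEGF-C but listed at 0 without it, and Egfl7 at 3.57 FPKM with VEGF-C and 15.8 FPKM without it. Reln, which lymphatic endothelium and some neurons express, was 0.0184 FPKM with VEGF-C and 1.14 FPKM without it. The lymphatic marker Lyve1 was listed at 0 with VEGF-C and at 3.06 FPKM without it, and Pdpn, also a gene of astrocytes, was at 28.4 FPKM with VEGF-C and 123 FPKM without it. Of mural cell genes 3 were measured, of ependymal and choroid plexus genes 3 and of fibroblast genes 1. Ttr, the choroid plexus transthyretin, was at 5.47 FPKM with VEGF-C and 1.07 FPKM without it. The mural marker Vtn was listed at 0 with VEGF-C and at 22.8 FPKM without it. Blood genes had 2 of 6 measured members at least 2-fold higher with VEGF-C and 3 lower (31.1% and 36.9% of all genes in its bin). The near-identical alpha globin genes Hba-a1 and Hba-a2 pointed in opposite directions, at 21.5 FPKM with VEGF-C and 126 FPKM without it, and at 33.8 FPKM with VEGF-C and 0.0369 FPKM without it, and their split is uncertain. Cd79b, of the B cell receptor, was at 6.68 FPKM with VEGF-C and 145 FPKM without it, and the platelet gene Pf4 at 10.8 FPKM with VEGF-C but listed at 0 without it. Cldn11, a claudin of myelin, was at 6.71 FPKM with VEGF-C and 15.7 FPKM without it.

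Growth factor and receptor genes had 13 of 25 measured members at least 2-fold higher with VEGF-C and 5 lower (62.1% and 16.8% of all genes in its bin), with 7 listed at 0 without VEGF-C. Lif, a cytokine of stem cell renewal, was at 22.3 FPKM with VEGF-C and 0.0389 FPKM without it, while Il6st, the shared receptor subunit of its family, was at 3.35 FPKM with VEGF-C and 33.3 FPKM without it. Hbegf, an EGF receptor ligand, was at 176 FPKM with VEGF-C and 316 FPKM without it, and Pdgfa at 55.9 FPKM with VEGF-C and 80.3 FPKM without it. Fgfr1, a receptor that drives stem cell division, was at 66.4 FPKM with VEGF-C and 126 FPKM without it. Igf1r was at 4.97 FPKM with VEGF-C and 18.4 FPKM without it, and its ligand gene Igf1 at 2.59 FPKM with VEGF-C but listed at 0 without it. Insr, the insulin receptor gene, was at 6.597 FPKM with VEGF-C and 0.461 FPKM without it. Bdnf was at 3.94 FPKM with VEGF-C but listed at 0 without it, Ntrk2, its receptor, at 19.7 FPKM with VEGF-C and 25.4 FPKM without it, and Ntrk3, another neurotrophin receptor, at 6.64 FPKM with VEGF-C and 72.8 FPKM without it. Ligands and their receptors thus stood apart in direction for LIF and IGF1. Fgfr2, an FGF receptor, was at 9.58 FPKM with VEGF-C and 23.6 FPKM without it.

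Targets of FOXO factors, which AKT restrains, and genes of quiescence had 6 of 16 measured members at least 2-fold higher with VEGF-C and 6 lower (31.1% and 36.9% of all genes in its bin), and 8 members stood at 10 FPKM or more in both libraries, with 1 higher and 2 lower relative to the shift and a re-centred median of -0.22. Txnip, which limits glucose uptake and responds to FOXO and glucose, was at 2.82 FPKM with VEGF-C and 152 FPKM without it. Klf9, a factor of stem cell quiescence, was at 39.8 FPKM with VEGF-C and 148 FPKM without it, and Cited2 at 52.9 FPKM with VEGF-C and 185 FPKM without it. Gadd45a was at 93.2 FPKM with VEGF-C and 251 FPKM without it. Ccng2, a FOXO target that slows the cycle, was at 9.28 FPKM with VEGF-C and 0.303 FPKM without it, Trib2 at 22.2 FPKM with VEGF-C and 1.82 FPKM without it, and Sesn3 at 3.28 FPKM with VEGF-C but listed at 0 without it. Foxo1 itself was at 20.6 FPKM with VEGF-C and 15.3 FPKM without it.

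Cytokine genes were counted as 11 higher and 3 lower of 15 (31.1% and 36.9% of all genes in their bin). At 10 FPKM or more in both libraries, however, 2624 of all 3523 genes were lower in level with VEGF-C, and so were all 3 members of the list. These were Ccl3, given above, Cxcl10, an interferon-induced chemokine, with a log2 ratio of -1.54, and Csf1, the growth factor of microglia, at 75.6 FPKM with VEGF-C and 129 FPKM without it. Cxcr4, the receptor of CXCL12, was at 7.82 FPKM with VEGF-C and 47.0 FPKM without it. Spp1, which encodes osteopontin, was at 37.5 FPKM with VEGF-C and 0.862 FPKM without it, Il18 at 14.1 FPKM with VEGF-C but listed at 0 without it, and Tgfb2 at 13.3 FPKM with VEGF-C but listed at 0 without it. Ccl4, the neighbour of Ccl3 on chromosome 11, was at 70.1 FPKM with VEGF-C and 5.09 FPKM without it, opposite to it. Microglial markers summed to 42.9 FPKM with VEGF-C and 88.5 FPKM without it, a direction that rests on Fcer1g, and their part was not tested.

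Components and targets of NF-kB had 10 of 17 measured members at least 2-fold higher with VEGF-C and 5 lower (62.1% and 16.8% of all genes in its bin). Nfkbia, the inhibitor that NF-kB itself induces, was at 71.7 FPKM with VEGF-C and 277 FPKM without it, Birc3, a survival gene, was listed at 0 with VEGF-C and at 37.7 FPKM without it, and Tnip1, a brake on the pathway, was at 0.764 FPKM with VEGF-C and 31.4 FPKM without it. Relb was at 9.81 FPKM with VEGF-C but listed at 0 without it, Nfkbib, another inhibitor, at 34.0 FPKM with VEGF-C and 1.43 FPKM without it, and the subunit gene Rela at 31.2 FPKM with VEGF-C and 34.7 FPKM without it. Interferon genes had 10 of 15 measured members at least 2-fold higher with VEGF-C and 2 lower (62.1% and 16.8% of all genes in its bin). Gbp2 was at 17.9 FPKM with VEGF-C but listed at 0 without it, Irf1 at 8.77 FPKM with VEGF-C but listed at 0 without it, and Ifit2 at 8.02 FPKM with VEGF-C and 0.0373 FPKM without it. Ifitm3, which blocks virus entry, was at 31.0 FPKM with VEGF-C and 114 FPKM without it, its neighbour Ifitm2 at 66.1 FPKM with VEGF-C and 63.9 FPKM without it, and Irf9, of the signalling complex, at 9.34 FPKM with VEGF-C and 46.8 FPKM without it. Antigen presentation genes had 8 of 11 measured members at least 2-fold higher with VEGF-C and 1 lower (62.1% and 16.8% of all genes in its bin). The class I heavy chain genes H2-K1 and H2-D1 were at 40.1 FPKM with VEGF-C and 19.1 FPKM without it, and at 34.7 FPKM with VEGF-C and 7.54 FPKM without it, with the light chain B2m at 204 FPKM with VEGF-C and 256 FPKM without it. Psmb10, of the immunoproteasome, was at 20.1 FPKM with VEGF-C and 0.127 FPKM without it, Tap2, a peptide transporter, at 10.3 FPKM with VEGF-C but listed at 0 without it, and H2-T23 at 9.93 FPKM with VEGF-C and 30.4 FPKM without it. Members of the class I family are similar in sequence, so their split is uncertain.

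The integrated stress response, through which amino acid shortage and other stresses raise the factor ATF4, had regulators and enzymes on both sides. In this list, 10 of 24 measured members stood at least 2-fold higher with VEGF-C and 6 lower (12.9% and 49.8% of all genes in its bin), and 18 members stood at 10 FPKM or more in both libraries, with 4 higher and 0 lower relative to the shift and a re-centred median of 0.33. The regulators Atf4 and Nupr1 were at 421 FPKM with VEGF-C and 1084 FPKM without it, and at 304 FPKM with VEGF-C and 961 FPKM without it, Ddit3, which encodes CHOP, at 434 FPKM with VEGF-C and 446 FPKM without it, and Ppp1r15a, which ends the response, at 216 FPKM with VEGF-C and 314 FPKM without it. Phgdh, the first enzyme of serine synthesis, was at 208 FPKM with VEGF-C and 95.5 FPKM without it, Psat1, the next, at 71.5 FPKM with VEGF-C and 81.4 FPKM without it, and Psph, the last, at 37.3 FPKM with VEGF-C and 4.01 FPKM without it. Shmt2, of mitochondrial folate metabolism, was at 54.5 FPKM with VEGF-C and 26.5 FPKM without it, and Mthfd2 at 75.8 FPKM with VEGF-C and 103 FPKM without it. Trib3, an inhibitor of ATF4, was at 12.6 FPKM with VEGF-C but listed at 0 without it, Cebpg, its partner, at 27.8 FPKM with VEGF-C and 11.4 FPKM without it, and Slc7a11, a cystine transporter, at 51.3 FPKM with VEGF-C and 54.6 FPKM without it. Cebpb, a transcription factor, had a log2 ratio of -1.11, and Aldh18a1, of proline synthesis, was at 32.5 FPKM with VEGF-C and 75.8 FPKM without it.

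Genes of the unfolded protein response of the endoplasmic reticulum had 6 of 20 measured members at least 2-fold higher with VEGF-C and 4 lower (12.9% and 49.8% of all genes in its bin), and 15 members stood at 10 FPKM or more in both libraries, with 4 higher and 0 lower relative to the shift and a re-centred median of 0.21. Xbp1, its transcription factor, was at 72.3 FPKM with VEGF-C and 11.2 FPKM without it, and Dnajb9, an XBP1 target, at 79.8 FPKM with VEGF-C and 20.5 FPKM without it. Herpud1, of protein degradation there, was at 33.2 FPKM with VEGF-C and 5.54 FPKM without it, and Sec61b, of the translocon, at 333 FPKM with VEGF-C and 101 FPKM without it. The main chaperone gene Hspa5 was at 799.6 FPKM with VEGF-C and 1093 FPKM without it, Hsp90b1 at 390.2 FPKM with VEGF-C and 680.3 FPKM without it, and Pdia3, a folding enzyme, at 200.3 FPKM with VEGF-C and 556 FPKM without it. The last 3 were lower in level as deposited, and Hsp90b1 and Pdia3 were lower relative to the shift as well (re-centred log2 ratios -0.09 and -0.76). Calr, which encodes calreticulin, was at 187 FPKM with VEGF-C and 375 FPKM without it, and the oxidase gene Ero1l at 8.17 FPKM with VEGF-C and 19.0 FPKM without it.

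Heat shock genes had 17 members at 10 FPKM or more in both libraries, 3 of them higher and 0 lower relative to the shift, and a re-centred median of 0.40. Hspa8 and Hsp90ab1, constitutive chaperones, were at 2637 FPKM with VEGF-C and 3093 FPKM without it, and at 1720.4 FPKM with VEGF-C and 2122 FPKM without it. Hspa1a, which stress induces, was at 12.7 FPKM with VEGF-C and 18.2 FPKM without it, and Hsf1, the factor behind the response, at 5.04 FPKM with VEGF-C and 68.7 FPKM without it. Chordc1, a partner of HSP90, was at 62.2 FPKM with VEGF-C and 14.7 FPKM without it, Stip1, which links HSP70 to HSP90, at 173 FPKM with VEGF-C and 96.1 FPKM without it, and Ahsa1, which speeds up HSP90, at 143 FPKM with VEGF-C and 381 FPKM without it. Redox genes of the NRF2 programme had 29 members at 10 FPKM or more in both libraries, 3 of them higher and 2 lower relative to the shift, and a re-centred median of 0.05. Hmox1, the heme oxygenase, was even at 6731 FPKM with VEGF-C and 6693 FPKM without it, and the ferritin genes Ftl1 and Fth1 at 13211 FPKM with VEGF-C and 15694 FPKM without it, and at 11289 FPKM with VEGF-C and 15214 FPKM without it. Metal-binding Mt2 was at 463 FPKM with VEGF-C and 1208 FPKM without it, Nqo1, a quinone reductase, at 37.4 FPKM with VEGF-C and 124 FPKM without it, and Gclm, of glutathione synthesis, at 135 FPKM with VEGF-C and 396 FPKM without it. Gsr, which recycles glutathione, was at 32.2 FPKM with VEGF-C and 144 FPKM without it, and Gpx1, which uses it, at 206 FPKM with VEGF-C and 83.7 FPKM without it. G6pdx, which supplies NADPH, was at 45.1 FPKM with VEGF-C and 4.20 FPKM without it, and Prdx4, a peroxiredoxin of the endoplasmic reticulum, at 55.8 FPKM with VEGF-C and 1.91 FPKM without it. Among heat shock genes lower in level were Hspa4, at 32.3 FPKM with VEGF-C and 71.0 FPKM without it, and the small heat shock gene Hspb1, at 8.92 FPKM with VEGF-C and 21.5 FPKM without it.

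Glycolysis genes had 14 members at 10 FPKM or more in both libraries, 5 of them higher and 1 lower relative to the shift, and a re-centred median of 0.57, beside 17.9% and 15.0% of all genes at that level, with 5 of the 14 below the shift, and an upper-quartile median of 1.11. With no re-centring their median was -0.14. Hk1, the hexokinase, was at 29.3 FPKM with VEGF-C and 17.1 FPKM without it, and Pkm, the pyruvate kinase, at 648 FPKM with VEGF-C and 499.9 FPKM without it. The phosphofructokinase genes Pfkl and Pfkp were at 16.0 FPKM with VEGF-C and 0.119 FPKM without it, and at 15.8 FPKM with VEGF-C and 0.259 FPKM without it. Pfkfb3, whose product activates phosphofructokinase, was at 29.3 FPKM with VEGF-C and 14.7 FPKM without it. Pgk1 was at 191 FPKM with VEGF-C and 143 FPKM without it, Aldoa at 1585 FPKM with VEGF-C and 1567 FPKM without it and Gapdh at 1061 FPKM with VEGF-C and 1298 FPKM without it. Slc16a1, a lactate transporter, was at 28.3 FPKM with VEGF-C and 154 FPKM without it, and Pdk1, which keeps pyruvate out of mitochondria, at 0.147 FPKM with VEGF-C and 7.58 FPKM without it. Hypoxia targets, some of them shared with glycolysis, had 5 of 17 measured members at least 2-fold higher with VEGF-C and 10 lower (62.1% and 16.8% of all genes in its bin), with Vegfa among the lower ones. The list's median mean of 9.91 FPKM lay just under the upper edge of its bin, 10 FPKM. Of all genes with a mean of 10 to 30 FPKM, 31.1% were higher and 36.9% lower. Hif1a, their factor, was at 15.3 FPKM with VEGF-C and 44.5 FPKM without it, and Egln1, the oxygen sensor that marks it for removal, at 14.5 FPKM with VEGF-C and 41.2 FPKM without it. Ndrg1 was at 1.61 FPKM with VEGF-C and 12.9 FPKM without it, P4ha2, of collagen processing, at 1.85 FPKM with VEGF-C and 16.2 FPKM without it, and P4ha1 at 8.26 FPKM with VEGF-C and 0.983 FPKM without it. Bnip3 and Bnip3l, of mitophagy, were at 19.6 FPKM with VEGF-C and 0.177 FPKM without it, and at 32.0 FPKM with VEGF-C and 9.01 FPKM without it. The hypoxia list is short at the higher threshold, with 4 members and a re-centred median of -0.76. Higd1a, a mitochondrial gene that hypoxia induces, was at 28.0 FPKM with VEGF-C and 64.6 FPKM without it.

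Genes of the citrate cycle had 9 of 26 measured members at least 2-fold higher with VEGF-C and 9 lower (12.9% and 49.8% of all genes in its bin), and 18 members stood at 10 FPKM or more in both libraries, with 3 higher and 2 lower relative to the shift and a re-centred median of -0.17. Within complexes the members stood apart. Pdha1, the alpha subunit of pyruvate dehydrogenase, was at 79.9 FPKM with VEGF-C and 0.326 FPKM without it, and its partner Pdhb at 103 FPKM with VEGF-C and 283 FPKM without it. Of succinate dehydrogenase, Sdhd was at 104.2 FPKM with VEGF-C and 1.63 FPKM without it, Sdha at 56.4 FPKM with VEGF-C and 51.0 FPKM without it and Sdhb at 174 FPKM with VEGF-C and 551 FPKM without it. Mdh2, a malate dehydrogenase, was at 508 FPKM with VEGF-C and 511 FPKM without it, and Idh3g at 95.6 FPKM with VEGF-C and 42.8 FPKM without it. Oxidative phosphorylation genes had 70 members at 10 FPKM or more in both libraries, 14 of them higher and 5 lower relative to the shift, and a re-centred median of 0.04, close to all genes at that level. Complex I again held members at both ends: Ndufs6 and Ndufs8 were at 140.4 FPKM with VEGF-C and 20.04 FPKM without it, and at 146 FPKM with VEGF-C and 23.6 FPKM without it, and Ndufb4 and Ndufa1 at 185 FPKM with VEGF-C and 903 FPKM without it, and at 158 FPKM with VEGF-C and 713 FPKM without it. Ndufb5 was at 101 FPKM with VEGF-C and 0.674 FPKM without it, from 4 fragments without VEGF-C. Subunits of 1 complex, made in fixed ratio as proteins, thus differed widely in the ratio of their transcripts. Cox7c, of complex IV, was at 625 FPKM with VEGF-C and 1794 FPKM without it, and Uqcrq, of complex III, at 481 FPKM with VEGF-C and 1259.6 FPKM without it. Sdhc, the membrane anchor of succinate dehydrogenase, was at 103.5 FPKM with VEGF-C and 215 FPKM without it, and Cox6a1, of complex IV, at 560.3 FPKM with VEGF-C and 1151 FPKM without it.

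Cytosolic ribosomal protein genes, the most abundant list, stood at the shift. All 81 stood at 10 FPKM or more in both libraries, and 0 were at least 2-fold higher and 20 lower, against 6.61% and 37.5% of all genes at that level. They summed to 107366 FPKM with VEGF-C and 185312 FPKM without it. Their median log2 ratio was -0.74, or -0.03 re-centred and 0.51 with upper-quartile scaling, so their direction follows the scaling. Rpl41 was at 5152 FPKM with VEGF-C and 8359 FPKM without it and Rpl35 at 3178 FPKM with VEGF-C and 5867 FPKM without it. Rpl30 was the member highest in ratio, at 144 FPKM with VEGF-C and 82.6 FPKM without it, and Rpl34 the lowest, at 76.8 FPKM with VEGF-C and 463 FPKM without it. Ribosomal protein genes have many processed copies in the genome, so single members are uncertain. Genes of ribosome assembly had 29 members at 10 FPKM or more in both libraries, 2 of them higher and 1 lower relative to the shift, and a re-centred median of 0.29. The nucleolar genes Npm1 and Nop56 were even, at 1304 FPKM with VEGF-C and 1303 FPKM without it, and at 330.2 FPKM with VEGF-C and 302 FPKM without it, Nolc1 was at 52.2 FPKM with VEGF-C and 20.6 FPKM without it, Rrp9 at 96.2 FPKM with VEGF-C and 5.03 FPKM without it, and Gnl3, which encodes nucleostemin, at 143 FPKM with VEGF-C and 495 FPKM without it. Fbl, the methyltransferase fibrillarin, was at 132 FPKM with VEGF-C and 337 FPKM without it. Ddx10, a helicase of ribosome assembly, was at 26.3 FPKM with VEGF-C and 60.5 FPKM without it.

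Translation factors had 36 members at 10 FPKM or more in both libraries, 3 of them higher and 3 lower relative to the shift, and a re-centred median of 0.09. Eif3e and Eif3l were higher in level, Eif3e at 280.1 FPKM with VEGF-C and 169.6 FPKM without it, while Eif3b and Eif3f of the same complex were lower, at 68.3 FPKM with VEGF-C and 252 FPKM without it, and at 38.4 FPKM with VEGF-C and 153 FPKM without it. Eif4e, which binds the cap, was at 226 FPKM with VEGF-C and 222 FPKM without it, and Eif4ebp1, its inhibitor and an ATF4 target, at 169.9 FPKM with VEGF-C and 668 FPKM without it. Eef1a1, the main elongation factor, was at 3057 FPKM with VEGF-C and 3683 FPKM without it. Transfer RNA synthetases had 15 members at the higher threshold, of which 8 were 2-fold lower and 1 higher as deposited, beside 37.5% lower and 6.61% higher among all genes. Relative to the shift 3 were lower and 1 higher, near the shares of all genes, with a re-centred median of -0.59 and -0.06 under upper-quartile scaling. Mars, for methionine, was at 14.3 FPKM with VEGF-C and 85.6 FPKM without it, Cars, for cysteine, at 26.8 FPKM with VEGF-C and 103 FPKM without it, and Farsa, a subunit for phenylalanine, at 96.7 FPKM with VEGF-C and 357 FPKM without it. Its partner subunit Farsb was at 52.0 FPKM with VEGF-C and 3.30 FPKM without it, and Rars, for arginine, at 74.3 FPKM with VEGF-C and 12.4 FPKM without it. Over all 20 measured synthetases, 6 were higher and 8 lower (12.9% and 49.8% of all genes in the list's bin). The lower threshold adds only members under 10 FPKM in at least 1 library, so the change between thresholds says nothing about the list.

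Proteasome genes had a median above the shift. Of 33 members, all at 10 FPKM or more in both libraries, 14 were higher and 1 lower relative to the shift, against 17.9% and 15.0% of all genes at that level. Their median was -0.07 as deposited, 0.64 re-centred and 1.17 with upper-quartile scaling. As deposited, 4 were higher and 6 lower. Besides Psmd6, the higher ones were Psmd2 and Psmd4, of the regulatory particle, at 116 FPKM with VEGF-C and 20.3 FPKM without it, and at 162 FPKM with VEGF-C and 53.9 FPKM without it, and Psme1, of an alternative activator, at 49.1 FPKM with VEGF-C and 11.6 FPKM without it. The catalytic core gene Psmb6 was at 358 FPKM with VEGF-C and 889 FPKM without it, the core gene Psma2 at 322 FPKM with VEGF-C and 854 FPKM without it, and Psmd3, of the lid with Psmd6, at 32.2 FPKM with VEGF-C and 108 FPKM without it. Splicing factors had 41 members at 10 FPKM or more in both libraries, 8 of them higher and 4 lower relative to the shift, and a re-centred median of -0.01. Sf3b2 was at 102 FPKM with VEGF-C and 27.5 FPKM without it, Snrpd1, a core protein of the spliceosome, at 294 FPKM with VEGF-C and 142 FPKM without it, Srsf9 at 37.3 FPKM with VEGF-C and 196 FPKM without it, and Ptbp1, which represses neuronal exons, at 68.1 FPKM with VEGF-C and 235 FPKM without it. Snrpc was at 162 FPKM with VEGF-C and 3.07 FPKM without it and Snrpa at 157 FPKM with VEGF-C and 565 FPKM without it, both of the U1 particle. Psmb7, a catalytic core gene, was at 208 FPKM with VEGF-C and 462 FPKM without it, and Snrpe, of the core of spliceosomal particles, at 411 FPKM with VEGF-C and 893 FPKM without it.

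Chromatin genes had 9 of 38 measured members at least 2-fold higher with VEGF-C and 7 lower (31.1% and 36.9% of all genes in its bin), and 22 members stood at 10 FPKM or more in both libraries, with 3 higher and 0 lower relative to the shift and a re-centred median of 0.23. Smarcb1, of the BAF remodeller, was at 90.7 FPKM with VEGF-C and 0.945 FPKM without it, and Arid1a of the same complex at 27.3 FPKM with VEGF-C and 85.7 FPKM without it. Hdac2 and Hdac3, histone deacetylases, were at 36.5 FPKM with VEGF-C and 0.307 FPKM without it, and at 40.6 FPKM with VEGF-C and 2.30 FPKM without it, and Eed, of Polycomb, at 46.4 FPKM with VEGF-C and 2.16 FPKM without it. Bmi1, a Polycomb gene of stem cell renewal, had a log2 ratio of -2.58, and Hmga2, of fetal stem cells, was at 16.2 FPKM with VEGF-C and 53.3 FPKM without it. The histone variant H2afz was at 649.5 FPKM with VEGF-C and 559 FPKM without it.

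Cholesterol synthesis genes had 6 of 22 measured members at least 2-fold higher with VEGF-C and 6 lower (31.1% and 36.9% of all genes in its bin), and 12 members stood at 10 FPKM or more in both libraries, with 2 higher and 1 lower relative to the shift and a re-centred median of 0.25. Hmgcs1, an early enzyme of the pathway, was at 140.1 FPKM with VEGF-C and 159.8 FPKM without it. Sc5d was at 41.3 FPKM with VEGF-C and 10.3 FPKM without it, and Idi1 at 38.1 FPKM with VEGF-C and 1.20 FPKM without it. Nsdhl was at 22.9 FPKM with VEGF-C and 147 FPKM without it, Cyp51 had a log2 ratio of -1.66, and Mvk, the mevalonate kinase, was at 5.43 FPKM with VEGF-C and 47.5 FPKM without it. Genes of fatty acids had 12 of 26 measured members at least 2-fold higher with VEGF-C and 7 lower (31.1% and 36.9% of all genes in its bin). The synthase gene Fasn, which adult stem cells need to proliferate, was even at 27.8 FPKM with VEGF-C and 26.99 FPKM without it, and Scd2 was at 71.9 FPKM with VEGF-C and 53.04 FPKM without it. Cpt1a, the gate to fatty acid oxidation, was at 4.28 FPKM with VEGF-C and 35.2 FPKM without it, and the dehydrogenase genes Acadl and Acadm were at 23.4 FPKM with VEGF-C and 145 FPKM without it, and at 11.2 FPKM with VEGF-C and 44.5 FPKM without it. The trifunctional enzyme genes Hadha and Hadhb pointed the other way, at 23.2 FPKM with VEGF-C and 4.77 FPKM without it, and at 55.7 FPKM with VEGF-C and 0.0790 FPKM without it. Plin2, which coats lipid droplets, was at 53.7 FPKM with VEGF-C and 1.31 FPKM without it, Fads2 at 9.65 FPKM with VEGF-C and 62.8 FPKM without it, and Fabp7, a carrier of fatty acids in radial glia, at 214 FPKM with VEGF-C and 68.2 FPKM without it. Fdps, which makes farnesyl diphosphate, was at 229 FPKM with VEGF-C and 478 FPKM without it, and Stard4, a sterol carrier, at 14.2 FPKM with VEGF-C and 33.6 FPKM without it. Fabp5, a fatty acid carrier, was at 139.6 FPKM with VEGF-C and 317 FPKM without it.

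Matrix and protease genes had 9 of 29 measured members at least 2-fold higher with VEGF-C and 8 lower (31.1% and 36.9% of all genes in its bin), and 12 members stood at 10 FPKM or more in both libraries, with 0 higher and 1 lower relative to the shift and a re-centred median of 0.21. Sparc was at 314 FPKM with VEGF-C and 268 FPKM without it, and the inhibitor gene Timp1 at 11.3 FPKM with VEGF-C and 0.194 FPKM without it. Bcan, a proteoglycan of brain matrix, was at 7.85 FPKM with VEGF-C and 77.0 FPKM without it, and Col11a1 at 2.90 FPKM with VEGF-C and 24.3 FPKM without it. Adamts1, a protease gene, was at 21.7 FPKM with VEGF-C and 1.20 FPKM without it, and Thbs2 at 20.1 FPKM with VEGF-C and 3.93 FPKM without it. Adhesion genes had 7 of 25 measured members at least 2-fold higher with VEGF-C and 7 lower (31.1% and 36.9% of all genes in its bin). Cdh2, the N-cadherin that anchors stem cells, was at 32.6 FPKM with VEGF-C and 14.2 FPKM without it, and Cd151, a tetraspanin, at 83.3 FPKM with VEGF-C and 21.3 FPKM without it. Cd9 was at 428 FPKM with VEGF-C and 256 FPKM without it, Itgb1, the main beta integrin, at 49.2 FPKM with VEGF-C and 79.6 FPKM without it, and Ctnnd2 at 15.8 FPKM with VEGF-C and 46.0 FPKM without it. Itga3 was listed at 0 with VEGF-C and at 1.42 FPKM without it. Of adhesion genes, the hyaluronan receptor gene Cd44 was at 126 FPKM with VEGF-C and 255 FPKM without it, the tetraspanin gene Cd81 at 422 FPKM with VEGF-C and 853 FPKM without it, and Itga5, an integrin, at 7.27 FPKM with VEGF-C and 16.9 FPKM without it.

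Genes of the cytoskeleton had 34 members at 10 FPKM or more in both libraries, 6 of them higher and 1 lower relative to the shift, and a re-centred median of 0.29. Actb and Actg1, the cytoplasmic actins, were at 6529 FPKM with VEGF-C and 11327 FPKM without it, and at 2464 FPKM with VEGF-C and 2311 FPKM without it. Myl12b, a myosin light chain, was at 153 FPKM with VEGF-C and 35.05 FPKM without it, Zyx, of focal adhesions, at 29.4 FPKM with VEGF-C and 3.10 FPKM without it, and Tpm1, a tropomyosin, at 30.4 FPKM with VEGF-C and 161 FPKM without it. Lysosome genes had 10 of 34 measured members at least 2-fold higher with VEGF-C and 8 lower (31.1% and 36.9% of all genes in its bin), and 21 members stood at 10 FPKM or more in both libraries, with 5 higher and 3 lower relative to the shift and a re-centred median of 0.20. The protease gene Ctsd was at 166 FPKM with VEGF-C and 729.9 FPKM without it, Ctsz at 34.2 FPKM with VEGF-C and 20.1 FPKM without it, and Lamp1, of the membrane, at 64.4 FPKM with VEGF-C and 221 FPKM without it. Subunits of the proton pump stood apart, with Atp6v0c at 201 FPKM with VEGF-C and 648 FPKM without it and Atp6v0d1 at 44.6 FPKM with VEGF-C and 24.5 FPKM without it. Tfeb, which drives lysosome genes, was at 3.75 FPKM with VEGF-C and 0.134 FPKM without it, and Lipa, a lipase, at 9.90 FPKM with VEGF-C and 42.1 FPKM without it. Reference genes, often taken as constant, had 14 members at 10 FPKM or more in both libraries, 1 of them higher and 0 lower relative to the shift, and a re-centred median of 0.36. Outside that threshold they differed more, with 1 of 18 members listed at 0 with VEGF-C and 1 without it. The member listed at 0 with VEGF-C had the lowest log2 ratio of FPKM + 1 in the list, -9.85. Ppia was at 3075 FPKM with VEGF-C and 3709 FPKM without it and Ywhaz at 561 FPKM with VEGF-C and 725 FPKM without it, while Tbp was at 13.6 FPKM with VEGF-C and 0.504 FPKM without it.

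**Figure D5:**
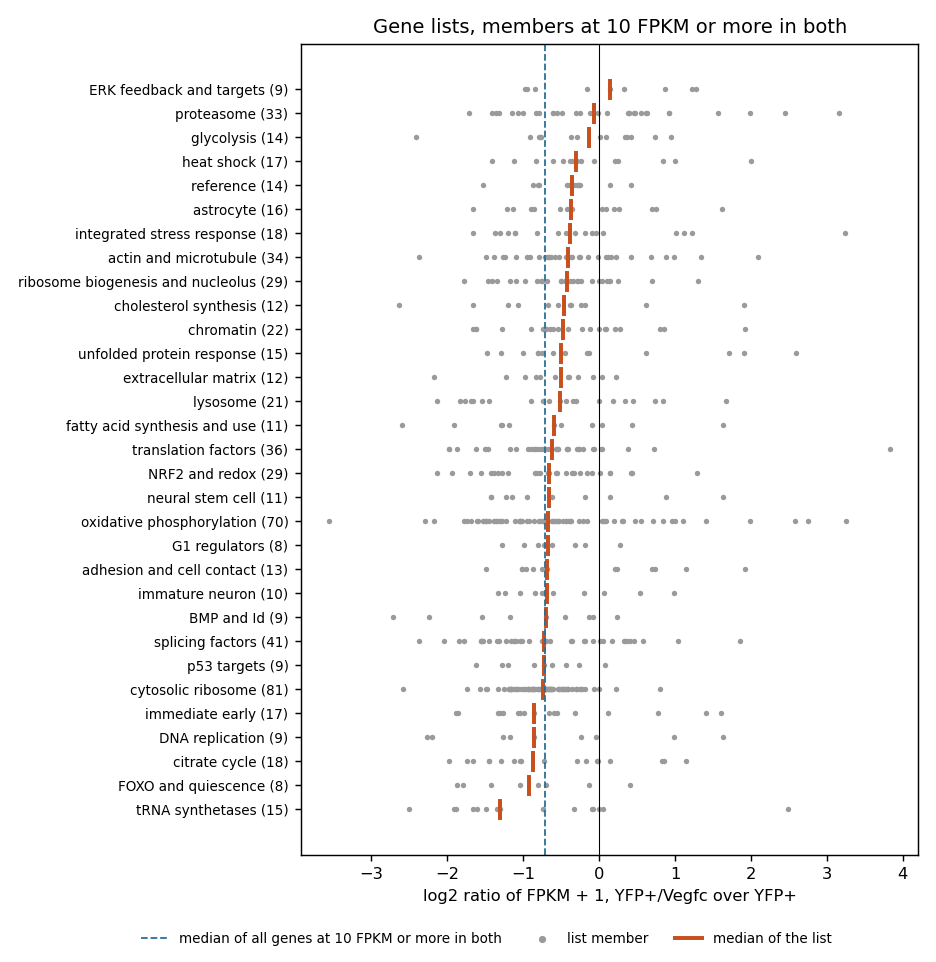
Each row is a gene list with at least 8 members at 10 FPKM or more in both libraries, with its number of members at 10 FPKM or more in both libraries, and points give each member's log2 ratio of FPKM + 1, YFP+/Vegfc over YFP+. Bars mark the list medians and the dashed line the median of all 3523 genes, -0.71, and the ERK list at 0.15 and transfer RNA synthetases at -1.30 are at the ends of the lists drawn.

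The same contrast in cells without the reporter shares no library with this one, but the mice were the same, so it is no independent repeat. There, 2780 (25.3%) of 10968 measured genes were higher with VEGF-C and 4969 (45.3%) lower, and the median was -0.54. At 10 FPKM or more in both of those libraries, 1210 (34.1%) of 3552 genes were higher and 230 (6.48%) lower, and the median was 0.65. The library with the smaller number of fragments was there the one with VEGF-C, at 8390507 fragments against 16275369 without it, whereas in reporter-positive cells it was the one without VEGF-C. The shift of abundant genes, -0.71 in reporter-positive and 0.65 in reporter-negative cells, was thus in each pair toward lower values in the deeper library, and the part of the libraries in it cannot be told apart from that of VEGF-C. Of 2276 genes at 10 FPKM or more in all 4 libraries, re-centred in each pair, 697 differed 2-fold in reporter-positive and 617 in reporter-negative cells. Of these, 43 were higher in both pairs, 49 lower in both and 124 opposite. Across the 2276 genes the re-centred ratios of both pairs had a Pearson's r of -0.058. The counts are therefore read neither as a shared nor as an opposite response. In both pairs the oxidative phosphorylation and cytosolic ribosome lists stayed near the shift, with re-centred medians of 0.09 and -0.03 in reporter-positive and 0.15 and 0.14 in reporter-negative cells.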

How the data were processed

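Per the labels' protocols, RNA of sorted, cultured cells was amplified with the SMARTer Ultra Low kit. Per the submitters' processing notes, the tools were TopHat2 2.0.9, Bowtie2 2.1.0, SAMtools 0.1.18 and Cufflinks 2.1.1 with Cuffdiff, on mm10; no source used here gives the annotation version. The authors deposited a table of FPKM and a table of normalized counts, per the file headers; the second was treated as a deposited signal, since its values are not whole numbers. Low normalized counts were whole multiples of 1 step in 99.0% to 99.6% of cases (tolerance 0.05), which gave approximate fragments. Of 23361 rows, 27 with symbols turned into dates were left out. GENCODE M21 held the symbols of 21699 rows (93.0%). Ratios used a pseudocount of 1 FPKM. No test was possible with 1 library a group. Scripts (Python 3.11.15, pandas 2.3.3, numpy 2.4.6, scipy 1.17.1, matplotlib 3.10.9) were tested on simulated data. Members and the 53 lists (1344 genes, 1335 found) were chosen with earlier results of these data known. Named genes were drawn from the 12 most extreme per direction at each threshold, the VEGF genes, and from each list up to 5 extremes per direction, the 4 most abundant and, in lists of 60 genes or fewer, members at 10 FPKM or more in both libraries; of the 564 genes that are extremes or most abundant in a list, 354 are named, chosen with their values known. Alternatives were other pseudocounts, scalings, thresholds, the normalized count table and thinning.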

Additional observations from a re-analysis of the deposited data

Results flagged for a closer look

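Of 18 gene lists with at least 10 members at 10 FPKM or more in all 4 libraries, 11 had a median ratio, relative to the shift of all abundant genes in each pair, that was positive in reporter-positive and negative in reporter-negative cells, and in 8 of these the medians differed by at least 0.5 on the log2 scale. Each condition has 1 library, so none of these differences was tested, and in each pair the library with fewer genes above 0 was a different condition. Relative to the shift, these lists thus stood higher in the library with more fragments in both pairs. The part of the cell population cannot be told apart from that of the libraries. How many of all genes show the same pattern was not counted. The re-centred median of integrated stress response genes was 0.33 in reporter-positive and -0.65 in reporter-negative cells (16 genes, difference 0.98). Proteasome genes had 0.61 in reporter-positive and -0.35 in reporter-negative cells (32 genes, difference 0.96), and glycolysis genes 0.72 in reporter-positive and -0.21 in reporter-negative cells (11 genes, difference 0.93). Translation factors had 0.16 in reporter-positive and -0.53 in reporter-negative cells (32 genes, difference 0.69), immediate early genes 0.08 in reporter-positive and -0.60 in reporter-negative cells (10 genes, difference 0.68), and lysosome genes 0.27 in reporter-positive and -0.38 in reporter-negative cells (19 genes, difference 0.66). Actin and microtubule genes had 0.31 in reporter-positive and -0.33 in reporter-negative cells (31 genes, difference 0.65), and heat shock genes 0.41 in reporter-positive and -0.18 in reporter-negative cells (16 genes, difference 0.60). The other 3 lists were the reference genes, with 0.36 in reporter-positive and -0.13 in reporter-negative cells, genes of ribosome assembly, with 0.37 in reporter-positive and -0.11 in reporter-negative cells, and the citrate cycle, with 0.05 in reporter-positive and -0.20 in reporter-negative cells. Genes often taken as constant thus showed the same pattern.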

How the results depend on the processing

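No paired analysis was possible because each condition has 1 library and no replicate numbers; for the same reason no library could be left out. Reading the normalized count table, a pseudocount of 0.1 FPKM, dropping the filter on low values and thinning to equal depth left each of the main counts they were run on within 1.5 times; no filter and thinning were not run on the counts at 10 FPKM in both libraries. With a pseudocount of 10 FPKM, 1510 genes were higher and 1940 lower with VEGF-C among those at 1 FPKM or more in either library, so that more were lower than higher, against 5020 higher and 2899 lower as deposited; replication genes were 13 higher and 4 lower, 8 mitosis genes were higher, ERK genes were 1 higher and 0 lower, and 3 stem cell genes were higher. Re-centring left 1657 genes lower at 1 FPKM in either library, and 631 higher and 528 lower at 10 FPKM in both; the lower genes were then 5 for replication, 4 for mitosis, 1 for ERK and 3 for stem cells. Upper-quartile scaling moved ratios of abundant genes by about 1.25 toward VEGF-C, which left 1185 genes lower at the first threshold, and 880 higher and 324 lower at the second; lower genes were 4, 4, 1 and 3 in the same lists, and 10 stem cell genes were higher. With members at 10 FPKM or more in both libraries only, replication had 1 higher and 4 lower, mitosis 0 and 4, ERK 2 and 0, and stem cell markers 1 and 4. Higher genes were 63.4% of those called at the first threshold and 15.0% at the second as deposited, 78.1% and 54.4% after re-centring, and 85.2% and 73.1% with upper-quartile scaling. Of the 1322 genes at 10 FPKM or more in both libraries that were lower with VEGF-C as deposited, 287 had a log2 ratio above 0 with upper-quartile scaling, and 0 of the higher genes had one below 0. Among named genes that were lower as deposited, those with a sign that turned under this scaling were, with their log2 ratios, Aldh18a1 (0.027), Calr (0.24), Cd44 (0.23), Cd81 (0.23), Cebpb (0.11), Cldn11 (0.0200), Cox6a1 (0.21), Ddx10 (0.045), Ero1l (0.0301), Fabp5 (0.063), Fdps (0.18), Fos (0.18), Higd1a (0.041), Hspa4 (0.11), Itga5 (0.0305), Mlc1 (0.091), Psmb7 (0.098), Sdhc (0.19), Snrpe (0.13), Sox4 (0.17), Sox9 (0.025) and Stard4 (0.000789). The cause of these moves was not tested. The limit of 1 library a condition and the 8561944 fragments without VEGF-C bound the precision for low genes.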
